A study of Homo sapiens with 2 samples.

Results

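The regions described here are the 100 kb stretches of the autosomes that were highly methylated in both of 2 acute myeloid leukemia (AML) cell lines. Whole-genome bisulfite sequencing had been used to compare OCI-AML3, an established human AML line with a heterozygous mutation of the DNA methyltransferase gene DNMT3A, with AML5, an established human AML line that is wild type for DNMT3A and is labelled OCI-AML5 in the sample record. Both lines were grown in the same serum-supplemented medium, and each gave 1 library of genomic DNA to which unmethylated λ DNA had been added. The lines come from different patients and differ in far more than DNMT3A, so the genotype and the other differences between the lines cannot be told apart. With 1 library per line there were no replicates, and no difference between the lines could be tested against variation between cultures.

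A bin was kept if 3 conditions held. It had at least 50 sparse CpGs, which are CpG dinucleotides with at most 10 other CpGs within 500 bp and more than 5 reads in each line. Its level, the mean over these CpGs of the methylated share of the reads, was at least 0.8 (80%) in OCI-AML3 and in AML5. Its levels in the lines were no more than 0.1 (10 percentage points) apart. Of 26390 tested autosomal bins, 7848 (29.7%) were kept, and they are called retained bins below. They covered 784.8 Mb. Because the levels chose them, the levels of the retained bins and the differences between the lines are given as a description without a test.

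For comparison, 4529 tested bins had at least 80% in AML5 and were more than 10 points lower in OCI-AML3 (loss bins), and 7812 were under 70% in both lines (low bins). The remaining 6201 tested bins fell into none of these classes. The classes were cut from the same levels, so that they differ in level by construction.

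In mammalian genomes most CpGs are methylated, whereas CpG islands at many gene starts are not. DNMT1 copies methylation onto the new strand after replication, and DNMT3A and DNMT3B add it to unmethylated sites. TET enzymes oxidise the mark and start its removal. In many tumours and cultured cells, gene-poor, late-replicating regions lose methylation over long distances and become partially methylated domains, while gene bodies that are transcribed and carry the histone mark H3K36me3 tend to keep it. CpGs that stand alone lose methylation most readily in such domains.

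The deposited tables held 902802339 calls for OCI-AML3 and 894828667 for AML5, with medians of 28 and 31 calls per autosomal CpG. In retained bins the median depth per CpG was 30.8 calls (OCI-AML3) and 31.6 calls (AML5), against 26.9 and 29.8 over all tested bins and 21.9 and 26.6 over low bins. Depth therefore moved with the class in both lines, and its part in the classes was not tested.

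The sequence of 1 site shows what was measured and how far a small region could stand apart from its bin. It is 300 bp long (GRCh37, plus strand, no exon), with every CpG in capitals, and lies at chr20:20433075-20433374 in an intron of RALGAPA2, in the CpG-dense stretch without an exon that rose the furthest from AML5 to OCI-AML3 in a retained bin.
RALGAPA2 window: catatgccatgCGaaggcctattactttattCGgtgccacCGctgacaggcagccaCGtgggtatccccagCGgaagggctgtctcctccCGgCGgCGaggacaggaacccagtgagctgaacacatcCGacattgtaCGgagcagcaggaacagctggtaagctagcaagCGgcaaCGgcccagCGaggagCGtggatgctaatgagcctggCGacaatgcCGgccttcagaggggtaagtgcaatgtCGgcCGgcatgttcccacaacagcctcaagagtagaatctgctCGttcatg

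The 19 CpGs of the RALGAPA2 window were between 71.6% and 100% in OCI-AML3 and between 0% and 12.5% in AML5. Of the calls in the window, 992 of 1089 were methylated in OCI-AML3 and 40 of 1346 in AML5. The ranges of the lines did not overlap, although the window lies in a bin that the rule kept.

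**Figure D1:**
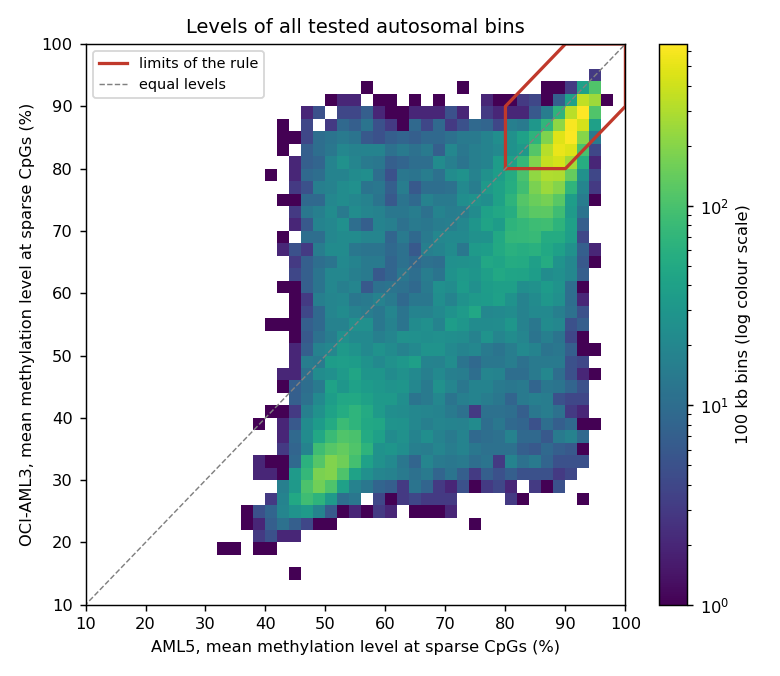
Mean methylation level at sparse CpGs of the 26390 tested autosomal bins, with AML5 on the horizontal and OCI-AML3 on the vertical axis (%) and the number of bins in each 2 by 2 point cell as colour on a log scale. The red outline marks the limits of the rule, inside which 7848 bins lie, most of them below the dashed line of equal levels.

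Retained bins had a median level of 85.3% in OCI-AML3 (interquartile range 82.9% to 88.0%) and 90.5% in AML5 (88.5% to 92.3%). The median difference, OCI-AML3 minus AML5, was −4.65 points (−6.34 to −3.06). OCI-AML3 had the lower level in 7549 bins and the higher level in 299, so the lines were not equal even where both kept high methylation, as the plot of bin levels shows. In 4370 bins (55.7%) the levels were within 5 points of each other, and 796 bins (10.1%) reached 90% in both lines. Of all tested bins, 23094 (87.5%) were lower in OCI-AML3.

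The limits cut through a continuous range of levels. Just inside the OCI-AML3 limit was the bin of chromosome 1 from 66900001 to 67000000, with 80.0004% in OCI-AML3 against 83.6% in AML5, and just outside it was a bin of chromosome 11 from 64800001 to 64900000 with 79.9974% and 87.9%. At the AML5 limit, a bin of chromosome 3 from 73400001 to 73500000 had 85.5% and 80.02%, and the nearest bin outside, on chromosome 18 from 53900001 to 54000000, had 85.5% and 79.95%. At the limit of the difference, the bin of chromosome 7 from 30100001 to 30200000 was at −9.99 points and was kept, and the bin of chromosome 1 from 10400001 to 10500000 was at −10.03 points and was not.

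The highest retained bins lay inside genes. The bin of chromosome 1 from 155300001 to 155400000, most of it within the gene of the H3K36 methyltransferase ASH1L, had 94.1% in OCI-AML3 against 95.8% in AML5 over 290 sparse CpGs. Both bins next in rank were on chromosome 6. That from 89500001 to 89600000, whole within RNGTT, which encodes the mRNA capping enzyme, had 93.9% and 95.7%, and that from 88200001 to 88300000 had 93.6% and 96.0%. Across single CpGs the spread was small in such bins, with an SD of 7.55 points in OCI-AML3 and 4.46 in AML5 in the ASH1L bin, against medians of 22.5 and 17.1 over retained bins.

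The 299 retained bins that were higher in OCI-AML3 differed in content from the 7549 that were lower. Their median level was 86.0% in OCI-AML3 against 83.7% in AML5, with a median difference of 1.63 points. No protein-coding gene covered any base of 137 of them (45.8%), against 921 (12.2%) of the bins that were lower. They made up 3.81% of all retained bins. The extremes among the autosomes were 12 of 106 retained bins on chromosome 21 (11.3%), 27 of 258 on chromosome 13 (10.5%) and 1 of 112 on chromosome 22 (0.893%). The most positive difference was 8.82 points, in the bin of chromosome 11 from 84700001 to 84800000 within DLG2, a synaptic scaffold gene, at 89.1% in OCI-AML3 against 80.3% in AML5. These bins were picked out after their values were seen.

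Retained bins lay in gene-rich sequence. Protein-coding genes covered 66.3% of the bases of retained bins, 50.5% of loss bins and 30.4% of low bins, against 46.3% over all tested bins. The median bin was covered to 78.8% if retained, to 51.7% if a loss bin and to 0% if a low bin. Only 13.5% of retained bins had no protein-coding gene at all, against 57.6% of low bins and 34.0% of tested bins.

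The share of bins kept did not follow gene cover in a straight order. It was 11.8% where no protein-coding gene was present, 24.6% where genes covered up to 50% of the bin, 51.3% from there to 99%, and 37.2% where genes covered more than 99% of the bin. In the last group 28.2% were low bins, against 10.2% of bins covered between 50% and 99%. By number of gene starts, the share was 22.6% in bins with none, 38.4% with 1, 47.5% with 2 or 3 and 42.6% with more.

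Retained bins were also richer in CpGs. They held a median of 10.0 CpGs per kb, against 8.54 in loss bins, 6.61 in low bins and 8.17 over all tested bins, and their median GC content was 40.9%, against 40.3%, 38.2% and 39.8%. By GC content the share kept was 15.0% up to 36% GC, 38.8% between 42% and 45%, and 30.9% above 50%. GC content and depth moved together among retained bins. When retained bins were cut into 4 equal groups by their calls per CpG in OCI-AML3, the median GC content went from 37.4% in the shallowest group to 45.6% in the deepest, and the median difference between the lines from −4.07 to −5.02 points.

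Retained bins outside genes were held at a slightly lower level. The 1058 bins without a protein-coding gene had medians of 83.99% in OCI-AML3 against 88.3% in AML5, and the 2212 bins covered to at least 99% by protein-coding genes had 87.5% and 91.8%. The 4578 bins with less cover lay between at 84.9% and 90.4%. The median differences were −3.86, −3.93 and −5.12 points, in that order. The difference was thus of similar size without genes and with cover of at least 99%, but larger in the bins with less cover. Because the rule limited the difference of every retained bin, these sizes are given as a description only.

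Every autosome had retained bins. The share kept was highest on chromosome 17 (39.6% of 730 bins), a gene-rich chromosome, followed by chromosomes 22 (33.9%) and 1 (33.9%). It was lowest on chromosome 18 (22.99% of 748 bins), followed by chromosomes 4 (24.6%) and 11 (24.98%). The gene-dense chromosome 19 was nonetheless among the lower chromosomes, with 25.9% of its 464 bins retained. The median level of retained bins varied little between chromosomes, spanning 84.7% to 86.3% for OCI-AML3 and 89.3% to 91.0% for AML5.

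Adjacent retained bins formed 2515 runs. Of these, 945 (37.6%) were single bins, whereas 504 runs of at least 5 bins held 4090 bins, 52.1% of all that were retained. There were 127 runs of at least 10 bins. The bin next to a run was a loss bin at 2011 of 5030 edges (39.98%), a low bin at 244 (4.85%) and one of the remaining tested bins at 2576 (51.2%). The other 199 edges met no tested bin. Of all tested bins that were not retained, 24.4% were loss bins, 42.1% low bins and 33.4% remaining bins. Low bins were thus rarely the direct neighbours of a run, which follows in part from cutting the classes from the same levels.

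The longest run had 30 bins, on chromosome 4 from 101100001 to 104100000. It held 12 protein-coding gene starts, among them those of PPP3CA, the catalytic subunit of calcineurin, BANK1, a B cell scaffold protein, and NFKB1, a subunit of NF-κB. Its mean level was 85.5% in OCI-AML3 against 89.8% in AML5, and no bin of it was below 80.9% in OCI-AML3 or 85.6% in AML5. The next, 29 bins on chromosome 10 from 75800001 to 78700000, held the starts of KAT6B, a histone acetyltransferase, VDAC2, a mitochondrial channel, and LRMDA, at 87.2% and 91.8%.

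The third run, 26 bins on chromosome 8 from 58300001 to 60900000 with TOX and CYP7A1, the rate-limiting enzyme of bile acid synthesis, was at 84.6% and 89.8%. The fifth, 22 bins on chromosome 6 from 20100001 to 22300000 with E2F3, CDKAL1 and SOX4, was at 87.6% and 90.3%. Long runs did not need dense genes. In the fourth run, 23 bins on chromosome 5 from 98200001 to 100500000, protein-coding genes covered a mean of 9.24% of a bin and only CHD1, FAM174A and ST8SIA4 started, yet the levels were 85.6% and 87.6%. A run of 20 bins on chromosome 2 from 145500001 to 147500000, outside the naming rule and chosen after its values were seen, held no protein-coding gene at all, with 87.9% and 89.8%.

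**Figure D2:**
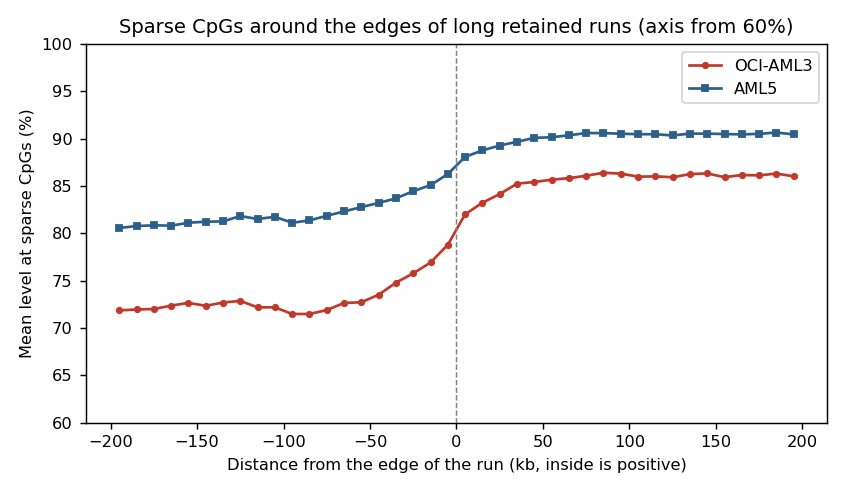
Mean level at sparse CpGs (%, axis from 60%) in 10 kb steps from 200 kb outside to 200 kb inside the 1360 edges of runs of at least 4 retained bins, with OCI-AML3 as red circles and AML5 as blue squares. Both lines rise across the edge at 0 kb, from 78.8% and 86.3% in the step just outside to 82.0% and 88.1% in the step just inside.

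Around the 1360 edges of runs of at least 4 bins, the mean over sparse CpGs rose from outside to inside. The edges lie on the 100 kb grid of the bins, so the slope does not tell sharp borders at varying positions from gradual ones. In the plot of run edges, the 10 kb step centred 45 kb outside had 73.5% in OCI-AML3 against 83.2% in AML5, and that 45 kb inside had 85.4% and 90.1%. Further inside, the levels stayed near 86.0% and 90.4%. The gap between the lines went from −9.69 points at 45 kb outside to −4.66 points at 45 kb inside, and both values follow in part from how the bins on either side were cut.

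Methylation in retained bins was nearly flat over the CpG densities outside CpG islands. CpGs with no other CpG within 500 bp, which are among those the rule used, had a mean of 83.6% in OCI-AML3 against 89.0% in AML5. Those with 11 to 20 others, which the rule did not use, had 86.3% and 90.5%. Above 40 others the level fell steeply in both lines, to 37.7% and 42.4% with 41 to 80 others and to 8.94% and 11.5% with more than 80.

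In loss bins the lines parted with isolation. There OCI-AML3 had 52.8% at CpGs with no other within 500 bp and 75.1% at those with 11 to 20 others, whereas AML5 had 84.4% and 87.9%. The difference was −31.6 points at the most isolated CpGs of loss bins and −5.49 points at those of retained bins. CpGs with at most 10 others were used to cut the classes, so this contrast follows in part from the rule. In low bins both lines had less methylation at isolated CpGs, 28.6% in OCI-AML3 against 41.3% in AML5, than at those with 21 to 40 others, 64.7% and 73.9%. The densest CpGs behaved in the opposite way, since those with more than 80 others had 56.6% and 52.3% in low bins, well above the 8.94% and 11.5% of retained bins.

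**Figure D3:**
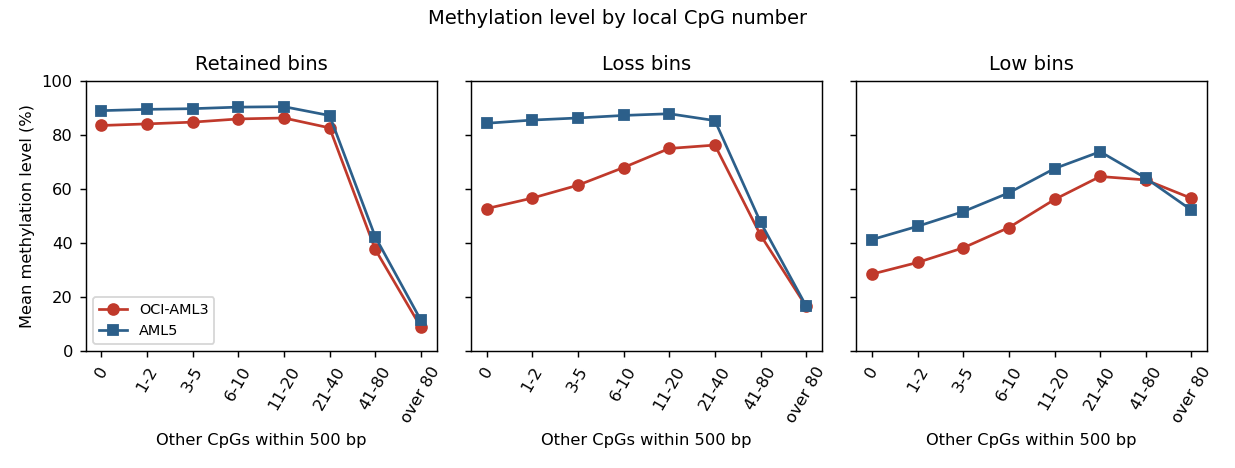
Mean methylation level (%) against the number of other CpGs within 500 bp in retained, loss and low bins, with OCI-AML3 as red circles and AML5 as blue squares. In retained bins both lines stay above 80% up to 40 other CpGs and fall to 8.94% and 11.5% beyond 80, whereas OCI-AML3 climbs from 52.8% with increasing density in loss bins.

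The bases on either side of the CpG went with the level. Sparse CpGs were grouped by the base before and the base after, with each context merged with its reverse complement. In retained bins, CpGs in ACGT had 79.7% in OCI-AML3 against 87.8% in AML5, those in ACGA 80.7% and 87.9%, and those in TCGA 81.3% and 87.5%. CpGs in GCGC had 91.9% and 93.2% and those in CCGC 90.8% and 92.4%, whereas CCGG, also with G or C on both sides, had 86.6% and 90.6%, below the mixed contexts ACGC (88.8% and 91.8%) and GCGA (89.3% and 91.7%).

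The difference between the lines followed a similar order. It was −8.14 points in ACGT, −7.14 in ACGA and −6.22 in TCGA, against −3.99 in CCGG, −1.65 in CCGC and −1.25 in GCGC. The value in GCGC was −0.47 when the levels of a bin could differ by at most 5 points. Loss bins had nearly the same order on a larger scale, from −30.1 points in TCGA and −29.9 in ACGT to −11.55 in CCGC and −9.63 in GCGC. CpGs flanked by A or T on both sides were thus the lowest and the most different in retained and in loss bins. In low bins they were again the lowest but not the most different, with −12.4 points in ACGT and −11.4 in TCGA against −16.0 in CCGA and −15.6 in ACGG. The part of these contexts in the difference of a bin was not tested.

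Within retained bins, the sparse CpGs of exons had 88.5% in OCI-AML3 against 92.6% in AML5, and those of introns 87.0% and 91.2%. Outside protein-coding genes the level was 82.8% and 88.1%. The lowest level was within 2000 bp of a gene start, at 76.2% and 84.1%, where the difference of −7.94 points was also the largest of these 4 groups. In windows of 1 kb with at least 5 sparse CpGs, 200622 of 261198 (76.8%) were at 80% or more in both lines and 720 (0.276%) were under 20% in both.

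Single windows did differ within retained bins. OCI-AML3 was lower by 20 points or more in 15670 windows (5.999%) and higher in 1823 (0.698%), where over all tested bins 23.5% were lower and 4.13% higher. In 346 windows OCI-AML3 was under 20% and AML5 at 80% or more, and in 13 the reverse held. Since the rule limits the mean of these CpGs, nothing is read from the lower share in retained bins.

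For single CpGs, Fisher's exact test compared the reads of the 2 libraries, not the lines. Of 5258355 CpG-dense CpGs in retained bins, those with more than 10 others within 500 bp, 412448 (7.84%) were called lower in OCI-AML3 at an adjusted p (Benjamini-Hochberg) under 0.05, and 95691 (1.82%) higher. Over all tested bins 13.2% were called lower and 3.68% higher. Of the 2624072 sparse CpGs, 199205 (7.59%) were called lower and 45179 (1.72%) higher, where 17.3% and 4.33% of all tested sparse CpGs were called. The bins were chosen on the same contrast, so the counts serve as a description.

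The CpG-dense CpGs had a mean of 74.2% in OCI-AML3 against 78.4% in AML5, a difference of −4.22 points. Counting every call once in place of every CpG moved this to −8.13 points. Pooled over all CpGs of retained bins, the methylated share of the calls was 74.1% for OCI-AML3 and 81.8% for AML5, and Wilson 95% intervals of both shares were narrower than 0.1 points. Such intervals cover counting error alone. Averaged over CpGs, the difference was −4.22 points at CpG-dense and −4.60 points at sparse CpGs. Pooled shares weight each CpG by its depth, and the depth of the lines differed from place to place. The pooled gap therefore mixes depth with level, and the part of each was not tested.

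CpG-dense CpGs formed 115630 stretches of at least 10 CpGs in retained bins. Of these, 95099 (82.2%) were at 80% or more in both lines and 2339 (2.02%) were under 20% in both. OCI-AML3 was lower by 20 points or more in 3432 (2.97%) and higher in 287 (0.248%), where 11.2% and 1.24% of the stretches of all tested bins were lower and higher. Most stretches were not at gene starts. The 7377 stretches within 2000 bp of a protein-coding start were under 20% in both lines in 24.7% of cases, against 0.479% of the 108253 others, of which 86.3% were highly methylated in both lines.

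Complete switches between the lines were rare. In 122 stretches OCI-AML3 was under 20% and AML5 at 80% or more, and in 2 the reverse held. One of those lower in OCI-AML3, named after its values were seen, lay in TNRC6C, which encodes an effector of microRNA silencing, at 0.335% and 93.4% over 47 CpGs.

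In the other direction, the stretch of the RALGAPA2 window printed above was at 84.8% in OCI-AML3 against 12.4% in AML5 over 25 CpGs. A stretch in BCL2, which encodes an inhibitor of apoptosis, was at 85.9% and 17.3% over 19 CpGs, and a stretch in CAST, which encodes the calpain inhibitor calpastatin, was at 93.9% and 29.0% over 77 CpGs. In CAST, as in several other stretches that rose, AML5 itself was partly methylated.

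Retained bins held 7718 starts of protein-coding genes, 40.1% of 19229 on the autosomes. This was 9.83 per Mb, against 8.64 in loss bins, 6.78 over all tested bins and 2.40 in low bins. At least 1 start lay in 52.5% of retained bins and in 48.0% of loss bins. Around the starts in retained bins the methylation of the bins was interrupted, as the plot of gene starts shows. The 250 bp steps on either side of the start had 6.70% and 6.74% in OCI-AML3 and 9.24% and 9.02% in AML5, and 4875 bp into the gene the levels were back at 78.04% and 82.7%. At the starts of loss bins the lowest step had 15.0% and 17.2%.

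**Figure D4:**
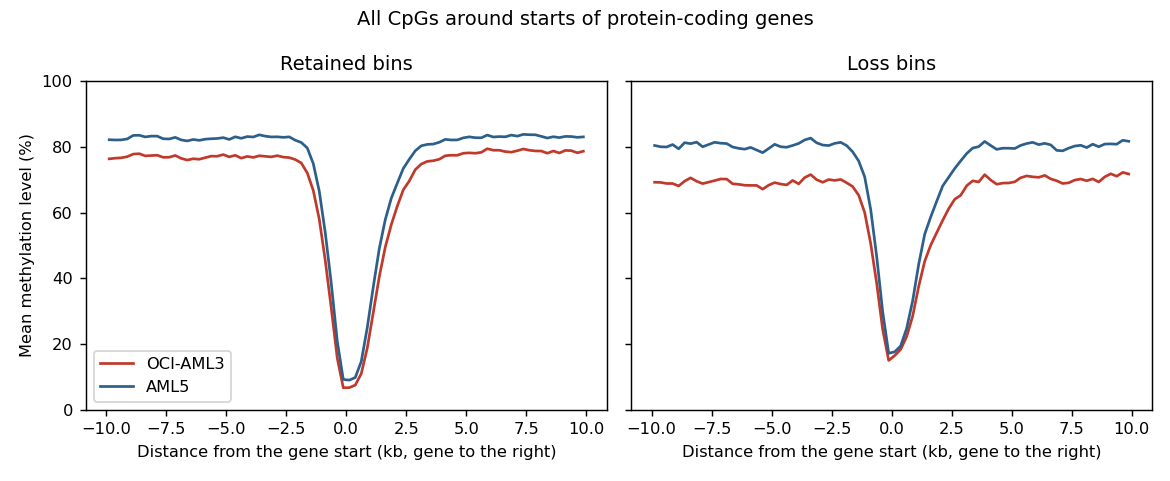
Mean methylation level of all CpGs (%) in 250 bp steps up to 10 kb from the starts of protein-coding genes in retained and in loss bins, with OCI-AML3 in red and AML5 in blue. In retained bins both lines drop below 10% at the start and return to 78.04% and 82.7% within 5 kb, whereas in loss bins the lines stay further apart away from the start.

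Promoters were taken as the CpG-dense CpGs within 2000 bp of the most upstream annotated start of a gene. With at least 10 such CpGs, the promoters of 7367 of the 7718 genes could be measured. Their median level was 19.3% in OCI-AML3 against 24.7% in AML5. Both lines were under 20% in 2974 promoters (40.4%), against 29.9% over all tested bins and 3.04% in low bins. OCI-AML3 was lower by 20 points or more in 298 promoters (4.05%) and higher in 39 (0.529%), where 6.82% and 2.01% of the promoters of all tested bins were lower and higher.

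The largest promoter decreases were near-complete switches between the lines. The promoter of CDKN2B, which encodes an inhibitor of cyclin-dependent kinases, had 4.84% in OCI-AML3 against 95.6% in AML5 over 51 CpGs, though AML5 had only 512 calls there against 3508. That of RUNX3, a transcription factor of the RUNX family, had 13.7% and 85.7% over 83 CpGs. Promoters of the signalling adaptors LAT and DOK2 had 15.0% against 89.2% and 5.35% against 74.5%.

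The other promoters among the 8 largest decreases were those of TRIM59, a member of the TRIM ubiquitin ligase family, at 7.20% in OCI-AML3 against 93.1% in AML5, and of CAMK1, a calmodulin-dependent kinase, at 11.4% and 84.6%. IFT122, a component of intraflagellar transport, was at 13.5% and 83.1%. HENMT1, which methylates small RNAs of the germ line, was at 21.4% and 91.9%. The bins around these 8 starts were at 80.4% or more in OCI-AML3, but the rule asks for at least 80% at sparse CpGs. How far the decreases reached over CpG-dense CpGs beyond the promoters was not tested.

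At the 8 largest increases, OCI-AML3 was at 55.8% or more and AML5 ranged from 13.7% to 53.9%. The promoter of IGSF10 had 88.2% in OCI-AML3 against 36.4% in AML5 over 44 CpGs, that of FAM124B 87.5% and 36.4% over 62, and that of FAAH, which encodes the enzyme that degrades the endocannabinoid anandamide, 82.0% and 33.3% over 142. DDIT4L, an inhibitor of mTOR signalling whose start lies in the first bin of the longest run, had 90.01% and 44.01% over 102 CpGs.

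CEBPE, a transcription factor of late granulocyte differentiation, had 66.0% at its promoter in OCI-AML3 and 23.3% in AML5 over 62 CpGs. HOXA4, a homeobox gene of the HOXA cluster, had 95.4% and 53.9% over 182 CpGs. MLC1 had 55.8% and 13.7% and ANKDD1B 89.0% and 48.1%. For all 16 promoters the Wilson 95% intervals of the pooled calls did not overlap between the libraries, which covers counting error only. These promoters were picked by the size of this difference, so the intervals add no support to it.

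Of the protein-coding genes, 6491 lay with their whole span in retained bins. This asks for every bin that a gene crosses, which is harder to meet for longer genes. The share was 34.9% of genes under 100 kb and 34.8% from 100 to 200 kb. It was 22.8% from 200 to 500 kb and 8.06% of the 310 genes over 500 kb. The share of genes that start in a retained bin was 39.6% under 100 kb, 47.8% from 100 to 200 kb, 38.6% from 200 to 500 kb and 20% over 500 kb. The longest gene with its whole span in retained bins was LRMDA, a gene linked to melanocyte differentiation, with 1129 kb on chromosome 10 from 77191382 to 78319926. Over its 7317 CpGs it had 88.5% in OCI-AML3 against 92.1% in AML5.

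The next longest genes had varied functions. DPYD, which encodes the enzyme that breaks down pyrimidines and fluorouracil, spanned 917 kb at 86.9% and 89.6%. RAD51B, a gene of homologous recombination, spanned 910 kb at 86.3% and 89.6%, and ADGRL3, a latrophilin adhesion receptor, spanned 878 kb at 83.5% and 87.6%. VPS13B, a lipid transfer protein, spanned 864 kb at 89.9% and 93.0%, and RABGAP1L 836 kb at 86.5% and 92.2%. All 6 were lower in OCI-AML3 over their span, with differences between −5.70 and −2.74 points.

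Gene families differed widely in how many members started in retained bins, against 40.1% of all protein-coding genes. Genes that start in an untested bin, 1333 of all 19229, count as not retained in these shares. Housekeeping families were near or above this share. It was 30 of 76 cytosolic ribosomal protein genes (39.5%), 19 of 38 proteasome subunit genes (50.0%) and 13 of 28 Mediator subunit genes (46.4%), the Mediator being a coactivator of RNA polymerase II. Zinc finger genes with a ZNF symbol on chromosome 19 were retained in 111 of 240 cases (46.3%). Of all 1480 protein-coding starts on that chromosome, 384 (25.9%) lay in retained bins. Of the 240, 10 started in an untested bin, whereas untested starts were not counted over the whole chromosome. These shares may thus differ in how many starts could be tested.

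Families used in the nose, skin and brain were largely absent. Only 6 of 398 olfactory receptor genes (1.51%), 5 of 53 clustered protocadherin genes (9.43%) and 1 of 25 glutamate receptor genes (4%), GRIN2D, started in retained bins. None of 55 keratin genes did. Low bins held 210 of the olfactory receptor, 46 of the protocadherin, 13 of the glutamate receptor and 36 of the keratin genes, where they held 1873 of all 19229 genes (9.74%). Members of a cluster share bins and are not independent of each other.

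**Figure D5:**
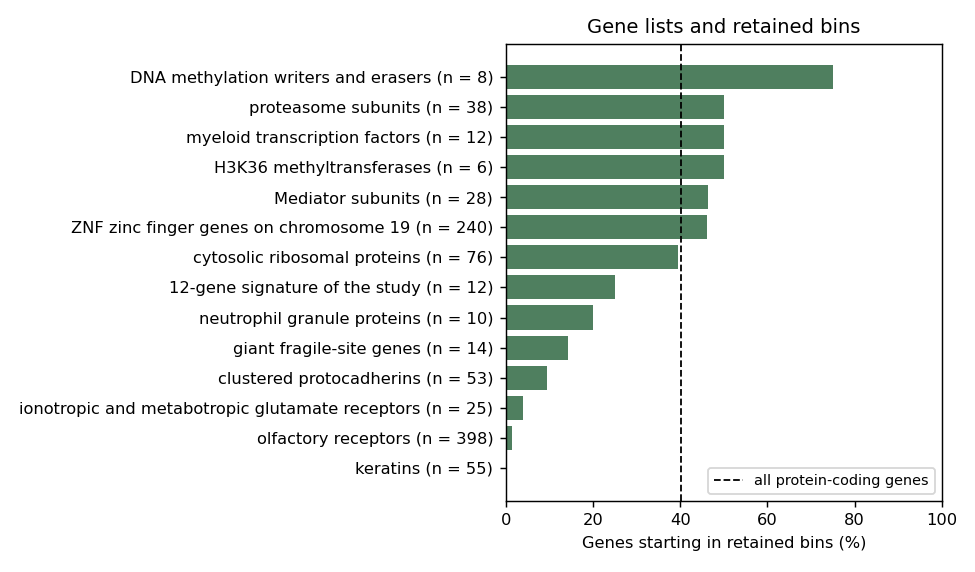
Share of the genes of each list that start in a retained bin (%), as bars from 0, with the number of genes in brackets and the share of all protein-coding genes (40.1%) as a dashed line. The bars run from 0 of 55 keratin genes to 6 of 8 DNA methylation writers and erasers.

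Of 8 genes that write, support or remove DNA methylation, 6 started in retained bins, namely DNMT1, DNMT3A, DNMT3B, TET1, TET2 and TET3. DNMT3A, the gene whose mutation distinguishes the lines by label, had 10.4% in OCI-AML3 against 14.8% in AML5 at the CpG-dense CpGs of its start and 72.8% and 77.3% over its span. The start of TET3 was at 11.1% and 21.1%, that of TET2 at 10.7% and 11.5% and that of TET1 at 33.2% and 30.4%. DNMT3L started in a loss bin, and the bin at the start of UHRF1 was not tested for want of sparse CpGs.

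Of 6 H3K36 methyltransferase genes, ASH1L, SETD2 and NSD1 started in retained bins and lay whole within them. ASH1L had 88.4% in OCI-AML3 against 90.4% in AML5 over its span, and its start 4.13% and 7.11%. SETD2 had 82.7% and 85.7% over its span and 4.60% and 6.22% at its start. NSD1 differed from these at its most upstream annotated start, which was methylated in both lines at 66.9% and 71.2%. Other starts of the gene were not measured apart.

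Myeloid genes were mixed. Of 12 transcription factors of the myeloid lineage, 6 started in retained bins, among them RUNX1, SPI1, GFI1 and KLF4. The start of SPI1, which encodes PU.1, was at 0.0853% in OCI-AML3 against 0.201% in AML5, and that of GFI1 at 0.0883% and 0.118%. Over its span GFI1 had 29.0% in OCI-AML3 against 7.09% in AML5, the reverse of the direction of its bin, which was at 83.9% and 85.9%. KLF4 had 11.6% and 20.2% at its start. The most upstream start of RUNX1 was at 78.9% and 92.4%.

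Of 10 neutrophil granule protein genes, CAMP and LYZ started in retained bins, and 3 (AZU1, PRTN3 and ELANE) started in bins that were not tested. CAMP, which encodes the cathelicidin peptide, had 65.8% in OCI-AML3 against 78.5% in AML5 at its start, and LYZ, which encodes lysozyme, 95.5% and 96.2%. Of 14 very long genes at common fragile sites, CTNNA3 and DLG2 started in retained bins, but none lay whole within them, and 1.26% of the span of CTNNA3 and 24.8% of that of DLG2 was retained.

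The study's 12-gene hypomethylation signature was chosen in part on these samples, so its count is not independent evidence of a direction. Of the 12 genes, 3 (25%) started in retained bins, and 1, KLF2, started in a bin that was not tested. TRIP6, an adaptor protein of focal adhesions, had 44.5% in OCI-AML3 against 93.5% in AML5 at its start within a bin at 84.9% and 88.3%. NRG4, a ligand of the ERBB4 receptor, had 5.32% and 9.90%, and PLD6, a mitochondrial enzyme of small RNA biogenesis, 17.6% and 26.0%. Of these 3, TRIP6 had the widest difference between the lines, whereas NRG4 and PLD6 were under 30% in both lines. The starts of NRG4 and PLD6 were thus far below their bins, which were at 82.5% and 86.2% for NRG4 and at 89.8% and 92.5% for PLD6.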

How the data were processed

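Whole-genome bisulfite sequencing of OCI-AML3 and AML5 was analysed from the deposited tables, 1 library per line. The authors aligned paired-end reads to hg19 with Bismark and Bowtie 0.12.8, and the deposited tables give the count of methylated and of unmethylated reads at each CpG, both strands summed. Removal of duplicate reads is not given in the sources used here. All 26752702 autosomal positions fell on CpGs of GRCh37. The methylated column was identified by mitochondrial DNA, which is almost unmethylated: it held 0.168% and 0.101% of the mitochondrial calls.

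Levels were methylated over all calls, averaged over CpGs with more than 5 reads in both lines. Stretches were runs of CpG-dense CpGs with gaps of at most 500 bp inside 1 bin. Starts were the most upstream annotated base of each gene in a GENCODE release lifted to GRCh37, a later release than that of the study. Single CpGs were compared by Fisher's exact test (two-sided) with Benjamini-Hochberg adjustment over all autosomal CpGs with more than 5 reads in both lines, and the test was checked on simulated data. With medians of 28 and 31 calls, single CpGs are imprecise. Wilson intervals count every call as independent and cover counting error only.

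The members, gene lists and naming rule were chosen with earlier results of these data known. The rule named the signature genes in retained bins, the 8 largest promoter decreases and increases, the 6 longest whole genes, up to 4 members per list by length, the 5 longest runs, the 3 highest bins and the bins at each limit. Some items that meet the rule are not reported here. Python 3.11.15, numpy 2.4.6, pandas 2.3.3, scipy 1.17.1, numba 0.67.0 and statsmodels 0.14.6 were used. Alternatives changed the read minimum, averaging, CpG density, bins, limits, stretches and gene set.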

Additional observations from a re-analysis of the deposited data

How the results depend on the processing

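The number of retained bins moved with the limits of the rule. It also moved with the bin size, since smaller bins cut the same sequence into more bins. The count was 7848 as reported, 15584 with 50 kb bins and 3831 with 200 kb bins. It was 4133 with a level of 0.85 and 4370 with a difference of at most 0.05. With at most 5 other CpGs within 500 bp, a level of 0.85 and a difference of at most 0.05, in that order, CpG-dense CpGs called lower in OCI-AML3 numbered 182083, 181531 and 194650 and those called higher 45446, 40143 and 53702. Under the same settings the stretches lower by 20 points or more numbered 2261, 1372 and 1546, the higher ones 184, 109 and 181, and the gene starts 4247, 3635 and 3591. A difference of 30 points left 1607 lower and 132 higher stretches. Counting all annotated genes gave 21380 starts. These counts move because fewer or more bins, stretches or genes enter. Of 73 alternative counts, 51 stayed within 1.5 times the reported count. Among them were the CpG-dense CpGs, the stretches and the gene starts under both other bin sizes. The starts numbered 7646 with 50 kb bins and 7517 with 200 kb bins. In checks added after seeing the data, the mean difference at CpG-dense CpGs ranged from −8.13 points (every call once) to −3.59, that in ACGT from −8.61 to −5.71 and that in GCGC from −1.60 to −0.47, with −0.81 at a level of 0.85. Of the 16 named promoters, only 3 stayed in a retained bin with a level of 0.85 and 5 with a difference of at most 0.05, although their own differences kept their direction with at least 10 reads and with every call counted once. No paired analysis was possible because each line has 1 library, and for the same reason no library could be left out.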
